A study of Mus musculus with 12 samples.

Results

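The genes examined here are the receptor tyrosine kinase gene Ret, the 4 genes of the GDNF family co-receptors (Gfra1, Gfra2, Gfra3 and Gfra4) and the 4 genes of their ligands (Gdnf, Nrtn, Artn and Pspn). These 9 genes were taken by symbol from a table of 23284 genes, and all 9 were found. They were measured by sequencing of messenger RNA in 12 neuroendocrine carcinomas that arose in the thyroid of engineered mice. The genotype label was Rb1/Trp53 for 7 tumours, written RP below, and Rb1/Trp53/Crebbp for 5 tumours, written RPC. Both labels thus name the tumour suppressor genes Rb1 and Trp53, and the second adds Crebbp, which encodes a histone acetyltransferase that assists transcription factors. The comparison asks which genes differ with Crebbp. The age of the mice, any treatment, the driver of any gene deletion and whether each tumour came from its own mouse have no entry in the labels, so each p-value reflects only how these tumours spread, which may in part be technical.

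Ret is a membrane kinase that binds no GDNF family ligand on its own. A ligand first binds a GFRα protein held to the membrane by a lipid anchor, and the pair then brings Ret molecules together and starts signalling. GDNF pairs mainly with GFRα1, neurturin (Nrtn) with GFRα2, artemin (Artn) with GFRα3 and persephin (Pspn) with GFRα4. In the thyroid, Ret is a gene of the calcitonin-producing C cells, and activating mutations of it cause medullary thyroid carcinoma, the tumour of these cells.

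The tumours had between 9.11 M and 57.3 M gene counts each. The limit of detection was set at 3 counts, which equalled 0.0502 to 0.312 CPM (counts scaled to 1 M per library, after TMM scaling), and this limit covers counting error only. Crebbp itself had a mean of 54.6 CPM (SD 20.02, n = 7) in RP tumours and 53.9 CPM (SD 4.19, n = 5) in RPC tumours, with an edgeR adjusted p of 0.957. Of the genes named in both labels, Rb1 was not called (log2 fold change 0.37; edgeR adjusted p = 0.137), and Trp53 was lower in RPC tumours, at 16.1 against 28.8 CPM (log2 fold change -0.84; edgeR adjusted p = 0.00918). Whole-gene counts cannot reveal a missing exon, so these values do not check the labels, and each direction below is one between groups as labelled, whatever deletion each tumour carried. The tumours carried C cell transcripts, with Calca, the calcitonin gene, at 80494 to 215508 CPM in the first group and 19972 to 119355 CPM in the second. Chga, Chgb, Scg2, Scg3, Syp and Isl1 were also above 100 CPM in every tumour, whereas Cckbr, the gastrin receptor gene listed with them, was at most 0.208 CPM. Transcripts of other tissues varied between tumours of each group, with the 3 parathyroid markers summing to 102 to 2798 CPM and 126 to 1191 CPM, and the 8 skeletal muscle markers to 17.2 to 3660 CPM and 18.9 to 3959 CPM.

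RefSeq promoter windows of 300 bases, from 250 before to 50 after an annotated start on GRCm38.p6, were at hand for 6 of the 9 genes. Those of Gfra1 and Artn are shown because these members passed the test between the groups given below, in opposite directions. Of the 2 windows of Gfra4, the most abundant member, the first is shown. They lie at chr19:58455349-58455648, chr4:117929714-117930013 and chr2:131043039-131043338, each on the minus strand, and are written 5′ to 3′ along the gene. In these lines capitals mark matches on either strand to a partial cAMP response element (TGACG, the first bases of the element), a GC box (GGGCGG) or a CCAAT box (CCAAT).
Gfra1: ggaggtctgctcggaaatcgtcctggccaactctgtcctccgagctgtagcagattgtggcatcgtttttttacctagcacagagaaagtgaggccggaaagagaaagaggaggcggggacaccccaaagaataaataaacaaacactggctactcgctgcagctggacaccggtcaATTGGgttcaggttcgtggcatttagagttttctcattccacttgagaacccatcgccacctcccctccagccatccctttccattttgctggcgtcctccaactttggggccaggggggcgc
Artn: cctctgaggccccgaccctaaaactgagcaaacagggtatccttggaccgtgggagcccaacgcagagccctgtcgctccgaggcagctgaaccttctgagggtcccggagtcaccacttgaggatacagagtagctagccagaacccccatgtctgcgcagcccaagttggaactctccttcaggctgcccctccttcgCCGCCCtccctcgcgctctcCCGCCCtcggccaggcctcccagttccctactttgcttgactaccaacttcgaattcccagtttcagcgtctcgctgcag
Gfra4: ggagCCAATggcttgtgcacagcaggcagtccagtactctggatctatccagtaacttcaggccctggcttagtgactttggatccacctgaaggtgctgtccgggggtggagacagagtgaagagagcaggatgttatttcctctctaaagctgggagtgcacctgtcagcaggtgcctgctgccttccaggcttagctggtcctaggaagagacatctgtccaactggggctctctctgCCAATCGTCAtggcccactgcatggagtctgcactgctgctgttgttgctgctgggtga
The Gfra1 window held a CCAAT box match on its minus strand, the Artn window 2 GC box matches on its minus strand, and the Gfra4 window 2 CCAAT box matches, the second of them next to a partial element. A full cAMP response element (TGACGTCA) was searched because CREB, the factor that binds it, recruits the Crebbp protein. It matched none of the 8 windows of these 6 genes and 1.79% of 32851 promoter windows. The partial element, which lies within the full one, matched 2 of the 8 windows, against 20.8% of all. These were the Gfra4 window shown and 1 of the 2 Gdnf windows, and the other window of each gene held no match to it. These matches describe letters in the windows and show neither binding nor its absence.

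The most abundant member was Gfra4. Levels are compared between genes only per length, as CPM per kb of exon in GENCODE M21, because a long gene collects more reads than a short one at the same level. Gfra4 stood at 273 ± 51.2 CPM per kb (SD, n = 7) in RP and 199 ± 70.5 CPM per kb (SD, n = 5) in RPC tumours. Ret followed at 31.3 ± 10.7 and 25.3 ± 10.5 CPM per kb, and Nrtn, the leading ligand gene, at 12.3 ± 4.16 and 7.37 ± 2.19 CPM per kb. The ranges of these 3 genes did not overlap within either group, so their order held in all 12 tumours.

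Below them the order differed between the groups. In RP tumours Artn came at rank 4, with 1.79 ± 0.522 CPM per kb (SD, n = 7), followed by Gfra2, Gfra1, Pspn and Gfra3, each with a range that overlapped that of the gene before it. Gfra1 had rank 6 there, at 0.635 ± 0.302 CPM per kb. In RPC tumours Gfra1 had rank 4, at 3.41 ± 1.18 CPM per kb (SD, n = 5), apart from Nrtn above it and from Artn below it. The ranges of Artn, Gfra2, Pspn, Gfra3 and Gdnf overlapped each with the next in that group. Gdnf had the lowest mean in both groups, at 0.0381 and 0.0190 CPM per kb. The gene of the preferred ligand of the most abundant co-receptor, Pspn, thus had a mean of 0.622 CPM per kb in RP tumours, where Gfra4 had 273.

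**Figure D1:**
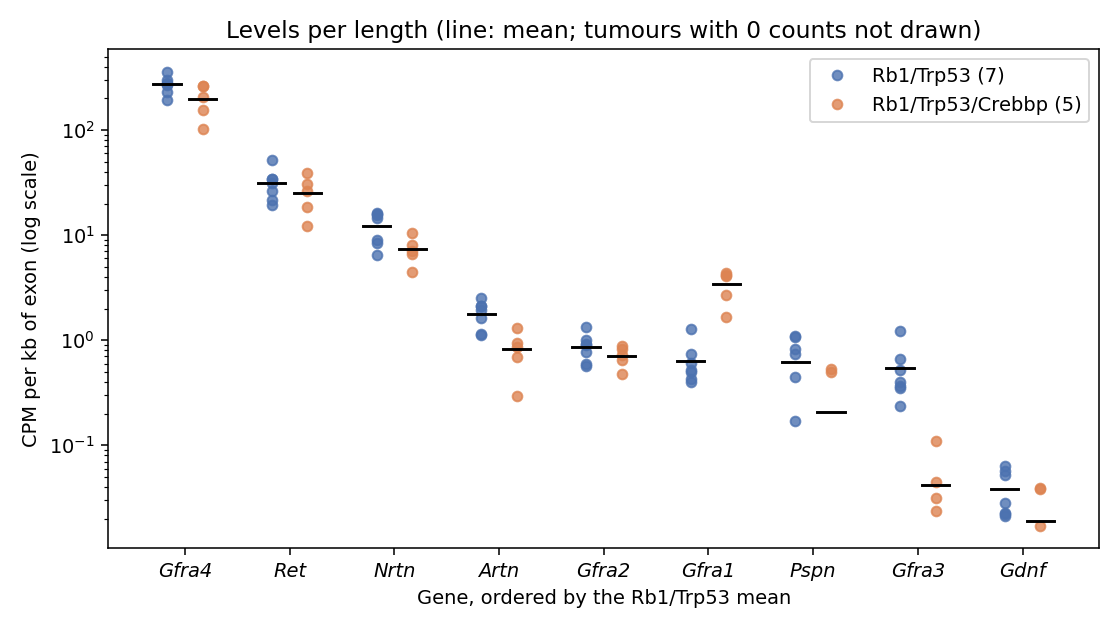
Level of each gene per kb of exon, on a log axis, in the RP (blue) and RPC (orange) tumours, with 1 point per tumour and a line at the group mean. Gfra4, Ret and Nrtn lead in both groups, Gfra1 moves from rank 6 to rank 4, and tumours with 0 counts are in the means but have no point.

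Of the 9 members, 6 passed the filter on low counts and were tested, and 2 of the 6 passed the threshold: Gfra1 rose and Artn fell. The test was edgeR's quasi-likelihood F test on all 14989 genes that passed, with Benjamini-Hochberg adjustment and a threshold of 0.05. It called 18.3% of all genes tested, with 9.64% higher and 8.61% lower in the RPC group. Against that background, 2 calls among 6 genes are no result about the members as a set. Ret itself, Gfra2, Gfra4 and Nrtn were not called, and Gfra3, Gdnf and Pspn did not pass the filter.

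**Figure D2:**
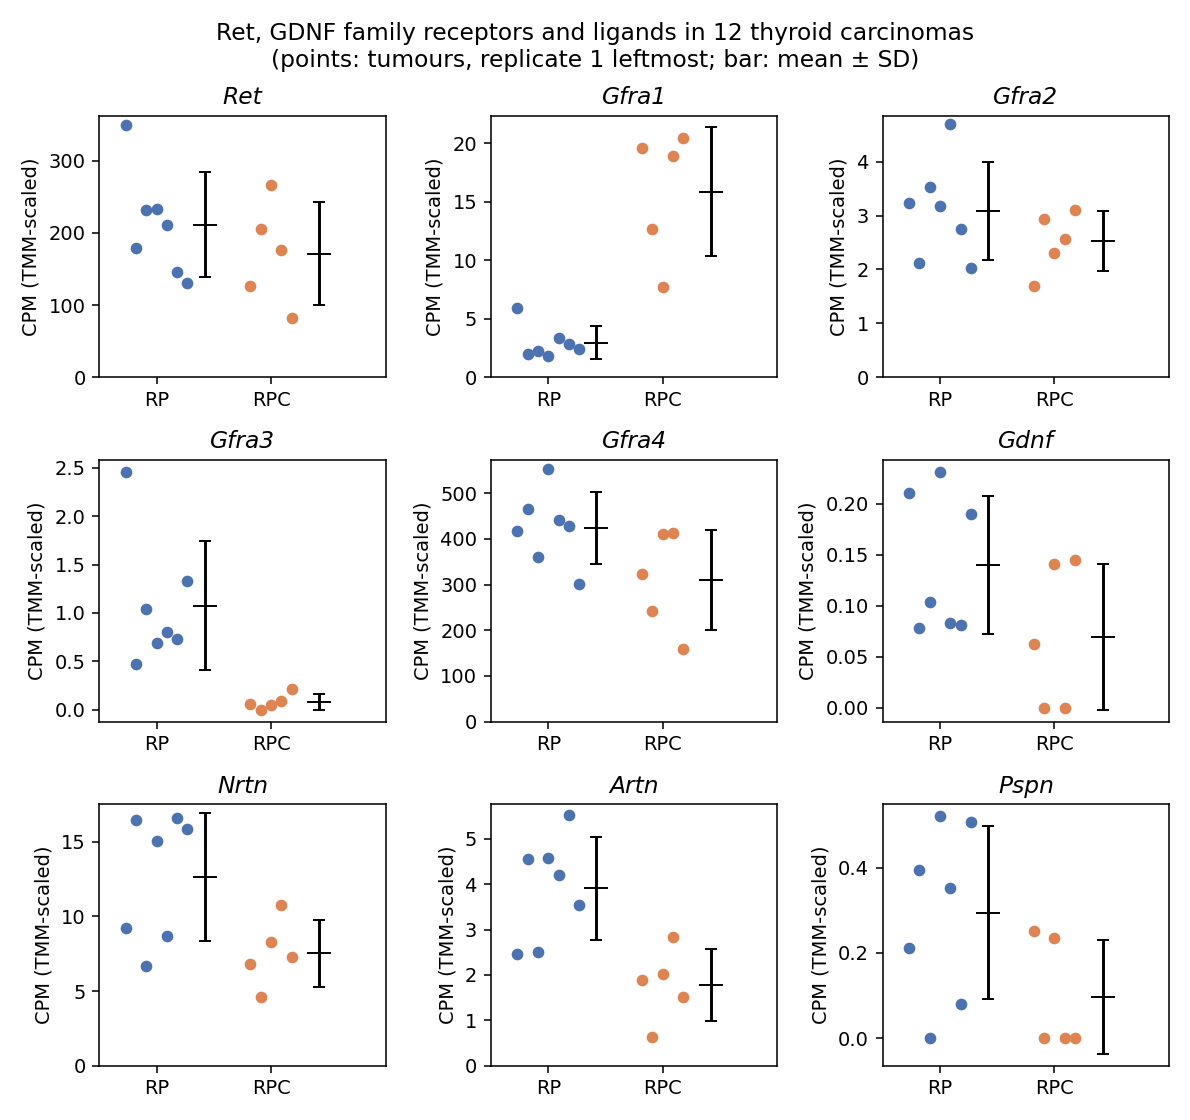
CPM of the 9 genes in each tumour of the RP and RPC groups, with replicate 1 at the left of each group and the mean ± SD as a bar; the axes differ between genes. The groups are apart for Gfra1 and Gfra3 and overlap for the other 7 genes.

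The kinase gene Ret was abundant in every tumour and did not pass the test between the genotypes. It stood at 348.7, 179.7, 232, 233, 211, 147 and 130.0 CPM in RP tumours 1 to 7. In RPC tumours 1 to 5 it stood at 126, 205, 266, 177 and 81.8 CPM. The groups overlapped widely, with the highest level in RP tumour 1 and the lowest in RPC tumour 5. The log2 fold change was -0.30 ± 0.29 (SE; edgeR adjusted p = 0.473), and its 95% interval ran from -0.87 to 0.27. A 2-fold fall or rise lies outside this interval, which holds for this fit only. With a score of adipocyte markers added to the fit the value was -0.68 ± 0.35 (SE). Against RP tumours 1, 3 and 5 alone it was -0.63 ± 0.35 (SE), and with a block on the tumour number -0.57 ± 0.29 (SE). A 2-fold fall is not excluded in these fits. With library sizes alone as the scaling the value was -0.14.

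Set against other receptor tyrosine kinases, Ret held rank 2 to 5 of 54 per kb of exon in every tumour. Ddr1, a collagen receptor, was first in 10 tumours and Ryk, a Wnt receptor, in 2. On the scale of raw counts, Ret took 14.3% ± 3.23 (SD, n = 7) of the summed counts of these kinases in RP and 14.7% ± 5.57 (SD, n = 5) in RPC tumours. The difference was 0.38 percentage points (exact two-sided permutation p = 0.880, n = 12), and its sign turned without RP tumour 6 or 7 (-0.14 and -0.26) or RPC tumour 2 or 3 (-0.63 and -1.25). The spread was wide in the second group, from 7.16% in tumour 5 to 21.2% in tumour 3.

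Gfra1, the co-receptor that presents GDNF to Ret, was higher in each RPC tumour than in the highest RP tumour. The first group held 5.90, 1.97, 2.29, 1.85, 3.39, 2.84 and 2.41 CPM in tumours 1 to 7, from 22 to 203 counts. The second held 19.6, 12.6, 7.68, 18.9 and 20.4 CPM in tumours 1 to 5, from 138 to 311 counts. Tumour 3 was the lowest of the second group and tumour 1 the highest of the first, and both still lay on their group's side of the gap. The means were 2.95 ± 1.40 CPM (SD, n = 7) and 15.8 ± 5.50 CPM (SD, n = 5), a 5.34-fold rise (log2 fold change 2.42 ± 0.32 SE; edgeR adjusted p = 0.00181). Groups without overlap were found for 6.26% of all genes tested, 3.62% in the direction of a rise.

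The Gfra1 value lay between 1.94 and 2.67 in all 26 alternatives, and its call was lost in 4 of them, which called 3 to 91 genes in all. It lay between 2.30 and 2.67 when single tumours were left out, and it was called each time. Using RP tumours 1, 3 and 5 alone as the first group, which leaves out the 4 tumours with the most adipocyte transcripts, it was 2.02 ± 0.42 (SE; edgeR adjusted p = 0.0950), with 40 genes called in all. With a score of thyroid follicular cells, the mean z-score of their markers, added to the fit it was 2.47 ± 0.64 (SE; edgeR adjusted p = 0.297), with 3 genes called in all. That score ran from -0.21 to 0.76 in RP and from -1.40 to -0.16 in RPC tumours, so it nearly follows the genotype. A like score of Schwann cell markers ran from -0.37 to 0.95 and from -0.70 to -0.032. Fits with these scores cannot well tell genotype from tissue content, here and below. An antisense gene of GENCODE M21, Gm16277, overlaps 416 of the 4641 exon bases of Gfra1. The strand setting of the counts was not given in the sources used here. Reads of Gfra1 and Gm16277 therefore cannot be told apart there.

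**Figure D3:**
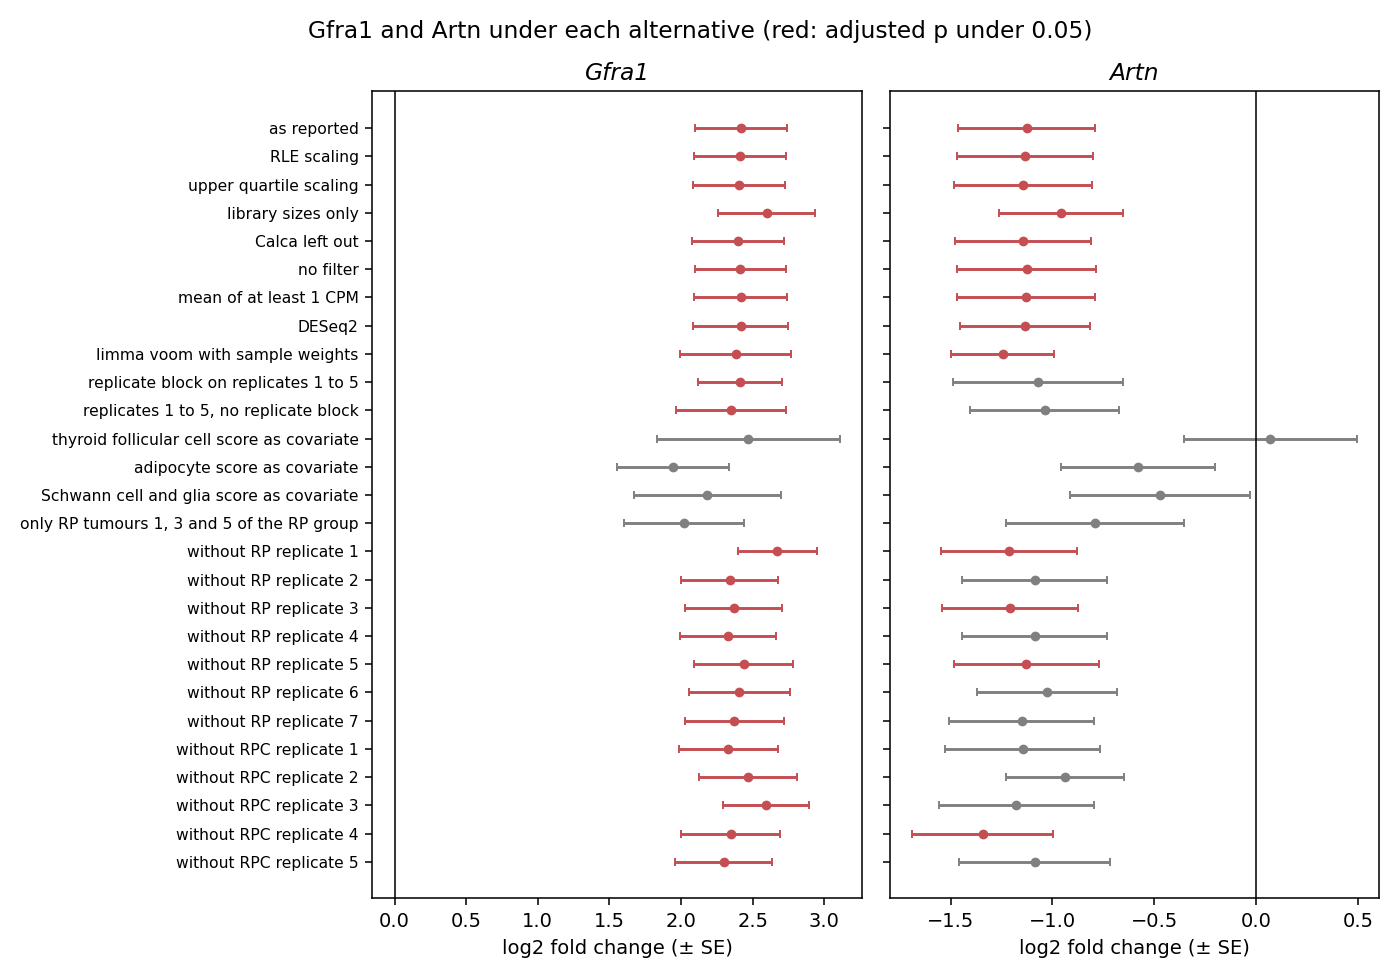
log2 fold change ± SE of Gfra1 and Artn as reported and under each alternative scaling, method, filter, covariate and set of tumours, red where the adjusted p was under 0.05. The Gfra1 values lie between 1.94 and 2.67, whereas those of Artn run from -1.34 to 0.070.

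Ratios of counts within a tumour need no library scaling, and those with Gfra1 also separated the groups. They reuse the Gfra1 counts given above, so they bear on the scaling only and are no separate support for a Gfra1 rise. The log2 ratio of Gfra1 to Ret counts was -6.19 ± 0.50 (SD, n = 7) in RP and -3.41 ± 1.20 (SD, n = 5) in RPC tumours. The difference of 2.78 is a 6.86-fold higher ratio (exact two-sided permutation p = 0.00126, the smallest that 792 splits can give). In the second group the ratio was lowest in tumour 3 (-5.11), which had the most Ret and the least Gfra1 of that group, and highest in tumour 5 (-2.002), which had the least Ret and the most Gfra1.

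Among the co-receptors Gfra1 gained share, although Gfra4 made up most of the counts in each tumour. Gfra1 held 1.37%, 0.417%, 0.622%, 0.331%, 0.756%, 0.654% and 0.786% of the summed counts of the 4 co-receptor genes in RP tumours 1 to 7. In RPC tumours 1 to 5 it held 5.69%, 4.92%, 1.83%, 4.36% and 11.1%. The means were 0.706% ± 0.339 (SD, n = 7) and 5.58% ± 3.42 (SD, n = 5), and the groups did not overlap (exact two-sided permutation p = 0.00126). Without RPC tumour 5 the difference went from 4.88 to 3.49 percentage points. Per kb of exon, which lowers the weight of the long Gfra1 transcript, the shares were 0.239% ± 0.115 (SD, n = 7) and 1.98% ± 1.27 (SD, n = 5).

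**Figure D4:**
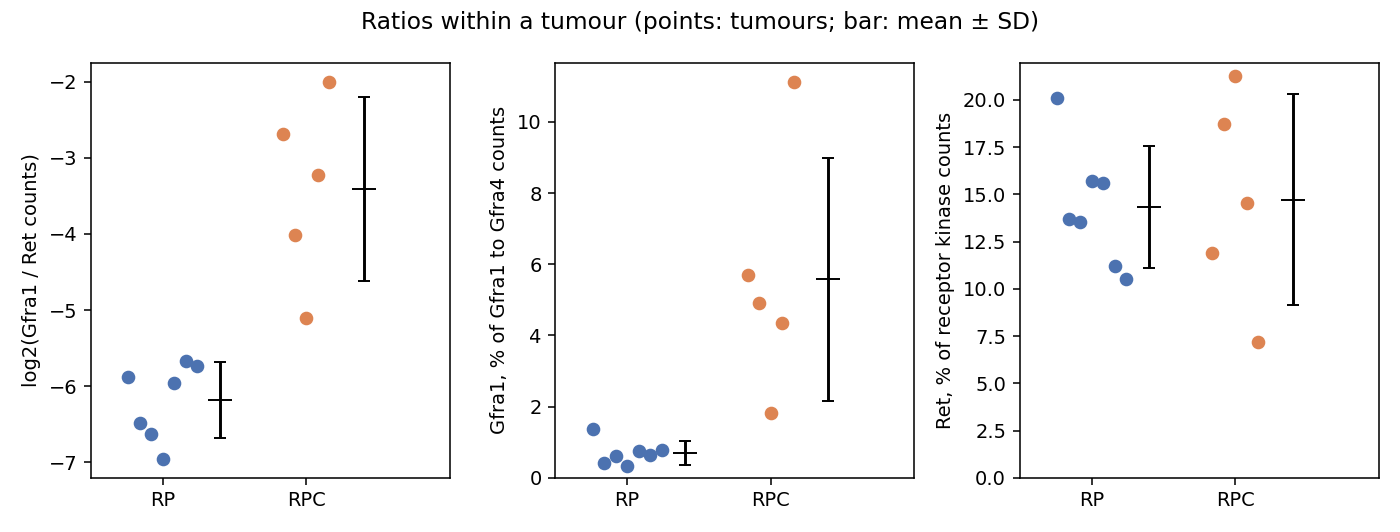
For each tumour of the RP and RPC groups, the log2 ratio of Gfra1 to Ret counts, the percent of co-receptor counts in Gfra1 and the percent of receptor tyrosine kinase counts in Ret, with the mean ± SD as a bar. The groups are apart in the first and second panels and overlap in the third.

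Gfra4, the persephin co-receptor, stood at 417, 466, 361, 553, 440.3, 428 and 300.4 CPM in RP tumours 1 to 7. The RPC tumours 1 to 5 held 323, 241, 410.4, 412 and 159.8 CPM. Tumours 2 and 5 of the second group lay below the whole first group, and the other 3 lay within its range. The log2 fold change was -0.45 ± 0.23 (SE; edgeR adjusted p = 0.167). With the follicular score as a covariate it was 0.18 (edgeR adjusted p = 0.905), so no direction is given for Gfra4.

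Gfra2, the neurturin co-receptor, was low and overlapped between the groups. It ranged from 2.03 to 4.70 CPM with a median of 3.18 in RP tumours. In RPC tumours 1 to 5 it stood at 1.70, 2.93, 2.31, 2.57 and 3.11 CPM. The log2 fold change was -0.30 ± 0.26 (SE; edgeR adjusted p = 0.425), with a 95% interval from -0.80 to 0.21. Its coefficient of variation, 29.6% in the first and 22.0% in the second group, was lower in the second group than that of any other member there.

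Gfra3, the artemin co-receptor, was low in RP and at or under the limit of detection in all 5 RPC tumours. The first group had 35, 6, 10, 12, 48, 9 and 21 counts in tumours 1 to 7, which were 2.46, 0.472, 1.04, 0.694, 0.803, 0.730 and 1.33 CPM. The second had 1, 0, 1, 1 and 3 counts. The groups did not overlap, and a gap in the direction of a fall was found for 2.64% of the genes tested. Summed over tumours, 141 counts against 6 gave a 12.1-fold lower level relative to TMM-scaled library size in the second group, with a 95% exact binomial interval of 5.43 to 33.6 that covers counting error only.

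Because Gfra3 did not pass the filter, its test comes from the fit with no filter. There the log2 fold change was -3.58 ± 0.63 (SE; edgeR adjusted p = 0.00639), and DESeq2 gave -3.70 ± 0.77 (SE; adjusted p = 5.72e-05). With RP tumours 1, 3 and 5 alone as the first group Gfra3 passed the filter, and the log2 fold change was -4.00 ± 0.69 (SE; edgeR adjusted p = 0.0619). These sizes rest on 6 counts in the second group, and they depend on the prior count of each tool. Without RPC tumour 5, which held 3 of them, Gfra3 also passed the filter, and the value was -4.24 (edgeR adjusted p = 0.00811). In this fit and in the one with RP tumours 1, 3 and 5, Gfra3 passed only through its RP counts. Neither fit is therefore separate support for a fall.

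Gfra3 is known from sensory and sympathetic neurons and from the Schwann cells of nerves, and some Schwann cell markers were lower as well. Of the 10 Schwann cell and glia markers 6 were tested, and 2 of them were called lower, among them S100b (log2 fold change -2.40; edgeR adjusted p = 0.0231). The summed level of the 10 markers was 118 to 155 CPM in RP and 82.7 to 115 CPM in RPC tumours, and none was at 0 in every tumour. The defining factor Sox10 was at 0.104 to 0.809 and 0.0630 to 0.444 CPM. Of the 10 autonomic neuron markers, 6 were tested, with Prph and Stmn2 higher and Th and Snap25 lower. They summed to 315 to 481 and 305 to 397 CPM, and the defining gene Dbh was at most 0.317 CPM in any tumour. The part of these cells in the differences of Gfra3 and Gfra1 was not tested, apart from the fit of Gfra1 with the Schwann cell score as a covariate (log2 fold change 2.18; edgeR adjusted p = 0.0748). In bulk tissue, fewer cells of a type and less RNA per cell cannot be told apart.

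**Figure D5:**
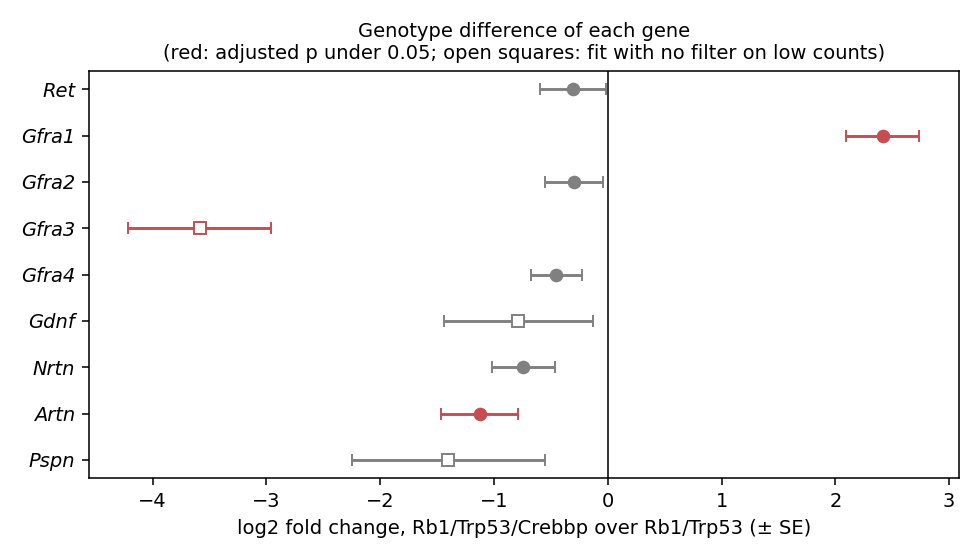
log2 fold change ± SE of each gene, RPC over RP, from the fit across all genes (circles) or, for Gfra3, Gdnf and Pspn, from the fit with no filter on low counts (open squares), in red where the adjusted p was under 0.05. Gfra1 lies alone to the right of 0, at 2.42, and Gfra3 farthest to the left, at -3.58.

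Among the ligand genes Artn fell. It stood at 2.46, 4.56, 2.50, 4.57, 4.20, 5.52 and 3.55 CPM in RP tumours 1 to 7 and at 1.89, 0.641, 2.03, 2.84 and 1.52 CPM in RPC tumours 1 to 5. The groups met in 1 tumour, since RPC tumour 4 lay above RP tumours 1 and 3. The fall was 2.18-fold (log2 fold change -1.13 ± 0.33 SE; edgeR adjusted p = 0.0363).

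The Artn call was weak. It was lost without any 1 of RP tumours 2, 4, 6 and 7 or of RPC tumours 1, 2, 3 and 5, with edgeR adjusted p of 0.0506 to 0.0731 and log2 fold changes of -1.18 to -0.94. With the follicular score added to the fit, the log2 fold change was 0.070 ± 0.42 (SE; edgeR adjusted p = 0.976), so no direction is given for Artn beyond the fit with no covariate. Of the 12 markers in that score 2 were called lower, and their sum was 2035 to 9635 CPM in RP and 393 to 5952 CPM in RPC tumours. The adipocyte markers, all 10 of which were called lower, summed to 145 to 2137 and 110.0 to 198 CPM, and with their score as a covariate the Artn value was -0.58 ± 0.38 (SE; edgeR adjusted p = 0.411).

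Nrtn, the most abundant ligand gene, held 9.20, 16.4, 6.65, 15.0, 8.68, 16.6 and 15.8 CPM in RP tumours 1 to 7. Tumours 2, 4, 6 and 7, the 4 with the most adipocyte transcripts, held 15.0 to 16.6 CPM and the other 3 held 6.65 to 9.20 CPM. The RPC tumours 1 to 5 held 6.80, 4.58, 8.29, 10.7 and 7.31 CPM, below those 4 and overlapping the other 3. The log2 fold change was -0.74 ± 0.28 (SE; edgeR adjusted p = 0.0762), and -0.13 (edgeR adjusted p = 0.829) against RP tumours 1, 3 and 5 alone. DESeq2 called Nrtn as lower (log2 fold change -0.75; adjusted p = 0.0355), as did limma voom (-0.88) and the edgeR fits without RP tumour 3 (-0.85) or RPC tumour 4 (-0.90). With the follicular or the Schwann cell score as a covariate the value was 0.24 or 0.15, so no direction is given for Nrtn.

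Gdnf and Pspn were close to the limit of detection. Gdnf had 1 to 5 counts in RP and 0 to 3 counts in RPC tumours, 18 and 6 counts in all, and only RP tumours 4 and 5 had more than 3. A difference in Gdnf was not detectable at this depth. Pspn had 3, 5, 0, 9, 21, 1 and 8 counts in RP tumours 1 to 7. In RPC tumours 1 to 5 it had 4, 0, 5, 0 and 0 counts, where a count of 0 allows up to 0.275, 0.266 and 0.217 CPM in tumours 2, 4 and 5. The fit with no filter gave log2 fold changes of -0.79 (edgeR adjusted p = 0.533) for Gdnf and -1.40 (edgeR adjusted p = 0.292) for Pspn.

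The ligand and co-receptor of each preferred pair can be set side by side. For GDNF and GFRα1, Gfra1 rose while Gdnf stayed near the limit in both groups. For artemin and GFRα3, both genes were called lower in RPC tumours, Artn by the test across all genes and Gfra3 by the fit with no filter. With the follicular score as a covariate the Artn value was 0.070, so no direction beyond that test is given for Artn. For neurturin with GFRα2 and persephin with GFRα4, none of the 4 genes was called in the edgeR fit on all 12 tumours.

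The lists that follow hold other genes of the pathway, and the count in each is to be read against the 18.3% of all genes tested that were called and their median log2 fold change of -0.02. The 16 called genes whose folds are given were also fitted with each of the follicular, adipocyte and Schwann cell scores and with RP tumours 1, 3 and 5 as the first group, and all 16 lost their edgeR call in each of these 4 fits, which called 3, 70, 91 and 40 genes in all.

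Of 8 other partners of Ret and of the GDNF family, 7 were tested, 2 rose and none fell, with a median log2 fold change of 0.38. Ncam1, which encodes an adhesion molecule that can serve as a GDNF receptor together with GFRα1, had means of 202 ± 57.6 CPM in the 7 RP tumours and 333 ± 27.3 CPM in the 5 RPC tumours (SD). The groups did not overlap, and the rise was 1.65-fold (edgeR adjusted p = 0.0217). Sdc3, which encodes a heparan sulphate proteoglycan that binds GDNF, rose 1.96-fold, from 60.0 to 164 CPM in the first group to 141 to 267 CPM in the second (edgeR adjusted p = 0.0217). Both calls were lost without RPC tumour 1 (log2 fold changes 0.70 and 0.93) or 2 (0.66 and 0.85). Sdc3 was 0.036 with the follicular score as a covariate (edgeR adjusted p = 0.984), 0.46 with the adipocyte and 0.40 with the Schwann cell score. Gdf15, the ligand of the distant family member GFRAL, was not called (log2 fold change -1.30 ± 0.43 SE; edgeR adjusted p = 0.0521).

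Of 29 genes of adaptors and proximal effectors that bind active Ret or stand directly behind it, 28 were tested, 3 rose and 3 fell, with a median log2 fold change of 0.09. Of the Shc adaptors, which link the kinase to Ras signalling, Shc3 and Shc1 were called and Shc2 was not (log2 fold change -0.13; edgeR adjusted p = 0.614). Shc3 rose 6.64-fold, from a mean of 0.322 to 1.88 CPM (edgeR adjusted p = 0.0230), although RP tumour 3 held 1.25 CPM and so lay within the second group. RP tumours 4, 6 and 7 held 1 count each, under the limit of detection. Of the RP tumours only tumour 3 reached the level of the filter, so Shc3 was tested through its RPC counts. The test is therefore weak support for a rise, and the fold is a ratio to values near the limit. Shc1, more abundant by far, fell 1.71-fold, from a mean of 141 ± 47.7 (SD, n = 7) to one of 82.3 ± 18.6 CPM (SD, n = 5) (edgeR adjusted p = 0.0320). Irs1, which encodes a docking protein, rose 1.81-fold (edgeR adjusted p = 0.0347), and Cblc, of a family of ubiquitin ligases that take receptors off the membrane, fell 2.30-fold (edgeR adjusted p = 0.0244). The other called members were Gab1, which fell, and Shank3, which rose. The Shc3 call was lost without RPC tumour 2 or 5 (log2 fold changes 2.45 and 2.51), and without RP tumour 3 the value went from 2.73 to 3.59. It was 0.62, 1.81 and 1.25 with the follicular, adipocyte and Schwann cell scores and 1.89 against RP tumours 1, 3 and 5. The Irs1 value went from 0.85 to 0.24 with the follicular score. The Cblc call was lost without RP tumour 4 or RPC tumour 1, 2 or 3 (-1.25 to -1.03), and the Irs1 call without RP tumour 2, 4 or 5 or RPC tumour 2, 3 or 5 (0.71 to 0.81). The Shc1 call was lost without RP tumour 2, 4 or 6 or RPC tumour 1, 2, 3 or 5 (-0.83 to -0.68), and with library sizes alone as the scaling (-0.62).

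Of 20 target and feedback genes of the pathway, 19 were tested, 3 rose and 3 fell, with a median log2 fold change of 0.07. Myb, a transcription factor gene, rose 2.96-fold, from a mean of 24.2 ± 9.79 (SD, n = 7) to one of 71.9 ± 29.3 CPM (SD, n = 5) (edgeR adjusted p = 0.00924). Etv5, an ETS factor induced by Ret signalling in the developing kidney, rose 1.77-fold (edgeR adjusted p = 0.0147). Dusp4, which encodes a phosphatase of MAP kinases, rose 4.48-fold (edgeR adjusted p = 0.0239), and RP tumour 3, at 75.6 CPM, again lay within the second group, which ranged from 55.0 to 141 CPM. Spry1, an inhibitor of Ret signalling in the same setting, fell 1.97-fold (edgeR adjusted p = 0.0381), and Ccnd1 fell as well. Among their close relatives, Etv4 (log2 fold change 0.48; edgeR adjusted p = 0.335), Spry4 (0.60; edgeR adjusted p = 0.294) and Dusp6 (-0.10; edgeR adjusted p = 0.805) were not called. Without RP tumour 3 the Dusp4 value went from 2.16 to 2.996. Its call was lost without RP tumour 4 or RPC tumour 1, 2 or 5 (1.94 to 2.15), and the Spry1 call without RP tumour 2, 4 or 6 or RPC tumour 1, 2, 3 or 5 (-1.05 to -0.84) and with library sizes alone (-0.78). In the order follicular, adipocyte and Schwann cell score, Dusp4 was 0.64, 1.48 and 1.03, and Spry1 was -0.31, -0.20 and -0.26. Against RP tumours 1, 3 and 5 Dusp4 was 1.52.

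Of 12 transcription factor genes listed as regulators of Ret, most of them from nerve tissue, 8 were tested, 1 rose and 1 fell, with a median log2 fold change of -0.20. Nkx2-1, a thyroid and lung factor known to act on the Ret promoter, had means of 315 ± 27.1 CPM in the 7 RP tumours and 233 ± 27.1 CPM in the 5 RPC tumours (SD). The groups did not overlap, and the fall was 1.35-fold (edgeR adjusted p = 0.0165), though with library sizes alone it was not called (log2 fold change -0.25). Phox2a, an autonomic neuron factor, rose 1.92-fold, from a mean of 4.49 to 8.63 CPM (edgeR adjusted p = 0.0432). Its call was lost without any 1 of RP tumours 1, 4, 5, 6 and 7 or RPC tumours 1, 2 and 5 (0.60 to 0.99), and with the follicular score as a covariate its log2 fold change was -0.031.

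Of 53 other receptor tyrosine kinases, 44 were tested, 4 rose and 5 fell, with a median log2 fold change of -0.27. Fgfr2, a fibroblast growth factor receptor gene, fell 2.60-fold without overlap between the groups (edgeR adjusted p = 0.00952), and Insrr, of the insulin receptor family, fell 2.83-fold (edgeR adjusted p = 0.0222). Epha4, an ephrin receptor gene, rose 2.52-fold (edgeR adjusted p = 0.0148). Alk, which encodes a receptor of neural tissue, rose 2.37-fold without overlap (edgeR adjusted p = 0.0194) from means of 0.822 to 1.98 CPM, and its call was lost without RPC tumour 2 (log2 fold change 0.85). The Insrr call was lost without RPC tumour 1 or 2 (-1.42 and -1.35). With the follicular score as a covariate Insrr went from -1.50 to -0.055, Fgfr2 from -1.38 to -0.48 and Alk from 1.24 to 0.24. Epha4 went from 1.34 to 0.70 with that score and to 0.68 with the Schwann cell score, which gave -0.78 for Fgfr2. The share of these kinases that was called, 20.5%, was near that of all genes tested.

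Within the RP group, Ret and Gfra1 were set against each other and against Calca and Tg, the thyroglobulin gene of follicular cells, as log2 CPM over 7 tumours. The correlation of Ret with Gfra1 was 0.55 (Pearson, exact permutation p = 0.206) and 0.0714 (Spearman's rho, exact permutation p = 0.906). It was -0.30 without tumours 1 and 7 and -0.21 without tumour 1 alone, so the positive value rests on tumour 1. The other 4 Pearson values lay between -0.42 and 0.23, with exact permutation p of 0.348 to 0.728, and Spearman's rho lay between -0.39 and 0.29, with exact permutation p of 0.396 to 0.783. Without the 2 tumours farthest from the median, r was -0.58 for Ret with Calca, 0.04 for Gfra1 with Calca, -0.46 for Ret with Tg and -0.04 for Gfra1 with Tg. After adjustment over the 5 relations no p was below 0.728 for Pearson's r or 0.906 for rho, and none of these relations was detectable. No correlation was taken within the RPC group of 5 tumours.

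The genes whose log2 CPM followed Ret most closely over the 12 tumours, after each genotype was centred, were Foxa2, with an r of 0.91, Grasp with 0.88, Msi1 with 0.88, Bcl7a with 0.87 and Tmem30b with 0.87. Foxa2 encodes a forkhead factor and is also 1 of the 12 C cell markers. Gfra1 was followed most closely by Fam168a, with an r of 0.87, Osbpl6 with 0.86, Camk2g with 0.85, Sema4g with 0.84 and Slc9a9 with 0.84. These are the highest of 13213 genes compared, in tumours that share library depth and tissue content, and are a description only.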

How the data were processed

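Messenger RNA was sequenced from 12 mouse thyroid carcinomas. RNA was isolated with TRIzol, selected with oligo(dT) beads and made into libraries with the NEBNext Ultra kit, per the labels' protocols. Processing used bcl2fastq 1.8.2, TopHat2 2.0.12, HTSeq 0.6.1 and the build mm9, per the submitters' processing notes. For the counting, annotation and strand setting are not given in the sources here. The authors deposited raw counts per gene, with 23284 genes and 5 summary rows, which entered neither library sizes nor tests. Of all reads listed, 13.1% to 17.6% lay in no gene and 10.9% to 18.5% aligned to several places, so reads shared by near copies of a gene can be lost. Replicate libraries all differed by more than sampling noise.

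Genes passed edgeR's filterByExpr at a minimum count of 10 and were scaled by TMM and tested with edgeR 4.0.16 (robust quasi-likelihood F test, Benjamini-Hochberg adjustment over 14989 genes, called under 0.05) in R 4.3.3, with all 12 tumours and no covariate. The standard error is the log2 fold change divided by the square root of F, and 95% intervals are normal ones from it. Genes under the filter take their values from the fit with no filter beyond 1 count. CPM uses TMM-scaled libraries, and log2 CPM a prior count of 2. Count ratios used an offset of 0.5. They were compared by an exact two-sided permutation test over all 792 splits, with scipy 1.17.1. Lengths are the exon bases of GENCODE M21 on GRCm38, and promoter windows come from RefSeq on GRCm38.p6, both other builds than mm9; no coordinate of the counts is given.

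The genes and lists were chosen with earlier results of these data known. Besides the 9 members, up to 4 called genes of each list with the smallest p were named, and for Ret and Gfra1 the 5 genes with the highest correlation (mean level 1 CPM or more). Gab1, Shank3, Ccnd1, Gdf15, Etv4, Spry4, Dusp6 and the marker genes lie outside this rule and were named after their values were seen. Some genes of the lists are not reported here. Alternatives were DESeq2 1.42.0, limma 3.58.1 voom with sample weights, 3 other scalings, a fit with Calca left out and 2 other filters. Further ones were a block on the tumour number, the same tumours with no block and covariates from 3 marker scores. A smaller first group and leaving out each tumour were also tried.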

Additional observations from a re-analysis of the deposited data

Results flagged for a closer look

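In 56 groups of 5 or 7 tumours, 6 held a highest value that stood apart from the rest by Dixon's criterion. Chance meets it in about 1 in 20 groups of normally distributed values. The form of the values here, mostly CPM, was not tested, and the rate may be higher for skewed ones. For Gfra1, RP tumour 1 held 5.90 CPM, where the next tumour held 3.39 CPM. RP tumour 3 stood apart for 3 genes of the Ret pathway, with 1.25 CPM of Shc3 (next 0.421), 243 CPM of Shc1 (next 135) and 75.6 CPM of Dusp4 (next 16.2). For Epha4, RP tumour 5 held 2.06 CPM (next 1.30), and for Alk, RPC tumour 2 held 3.84 CPM (next 1.602). Without the tumour named, Gfra1, Shc3, Shc1, Dusp4 and Epha4 were called in the same direction, and Alk was not called. In that fit Shc3 passed the filter only through its RPC counts.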

How the results depend on the processing

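The edgeR fit on all 12 tumours called 2736 genes and 2 members. The count of genes was 6357 with limma voom, 40 with RP tumours 1, 3 and 5 as the first group, and 3, 70 and 91 with the follicular, adipocyte and Schwann cell scores as covariates. Under those last 4 settings 0 members were called. The follicular and Schwann cell scores nearly follow the genotype, so a call lost or a sign turned with them does not tell genotype from tissue content. DESeq2 called 4 members, and leaving out single tumours gave 1074 to 3510 genes and 1 to 4 members. The genes fell by over 1.5 times without RP tumour 2, 4 or 6 or RPC tumour 1, 2 (fewest), 3 or 5. The members were 1 without RP tumour 2, 4, 6 or 7 and 4 without RPC tumour 4. These counts of members differ in their base. The fit on all 12 tumours tested 6 members, DESeq2 9, and each fit without an RPC tumour 7, with Gfra3 added. In the order follicular, adipocyte and Schwann cell score and smaller first group, Gfra1 was 2.47, 1.94, 2.18 and 2.02 on the log2 scale, with edgeR adjusted p of 0.297, 0.0553, 0.0748 and 0.0950, and Artn was 0.070, -0.58, -0.47 and -0.79. With single tumours left out Gfra1 lay between 2.30 and 2.67, Artn between -1.34 and -0.94 and Nrtn between -0.90 and -0.63. Nrtn was called with DESeq2 (-0.75) and limma voom (-0.88), and was 0.24 and 0.15 with the follicular and Schwann cell scores. Gfra4 was 0.18 and Phox2a -0.031 with the follicular score, and Gfra3 was -4.00 with the smaller first group. With library sizes alone, Gfra1 was 2.60 and Ret -0.14. With the smaller first group the Gfra1 share of co-receptor counts differed by 4.66 points (exact permutation p = 0.0714) and the Ret share of kinase counts by -1.71 points; leaving out single tumours moved the latter from -1.25 to 2.27 points. Within RP tumours, leaving out 1 moved the correlation of Ret with Gfra1 from -0.21 to 0.72, of Ret with Tg from -0.52 to 0.18 and of Gfra1 with Tg from -0.0021 to 0.38. The causes of these shifts were not tested. Ret and Gfra2 were called in none of the 26 alternatives. Depth limits Gdnf (at most 5 counts), Pspn (at most 21) and, in RPC tumours, Gfra3 (at most 3).

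Nothing in the labels says that equal tumour numbers pair tumours, and the correlations of same-numbered tumours were 0.16, -0.06, -0.05, 0.12 and -0.04. Such values cannot exclude a shared batch. With the number as a replicate block on numbers 1 to 5, edgeR called 463 genes and 1 member, against 868 genes and 1 member with no block on the same tumours. Gfra1 was 2.41 with the block (edgeR adjusted p = 0.0194) and Artn -1.07, against -1.04 with no block. With the replicate block the log2 ratio of Gfra1 to Ret differed by 2.97 and the Gfra1 share by 4.88 points, each at the smallest exact permutation p that 5 pairs allow, 0.0625, and the Ret share of kinase counts differed by -1.02 points.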
